A study of Mus musculus with 10 samples.

Results

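The 10 genes described here mark macrophages and monocytes, the phagocytes of tissue and blood, and were followed through melanoma cells sorted from mice. They were Csf1r, Emr1, Cd68, Mrc1, C1qa, C1qb, C1qc, Lyz2, Mpeg1 and Cd14. Each was chosen by its name, and its values are sums over all transcripts listed under that name. All 10 were found, with 16 transcripts, among 34162 gene names and 92214 transcripts. RNA was measured in 10 libraries of cells from mice of a mixed C57BL/6 and SV129 background. Metastatic cells came from lymph nodes and primary cells from skin tumours, and the sorter divided each by GFP, with c-Myc-high standing for cells that carried it and c-Myc-low for cells that did not. There were 3 metastatic c-Myc-high, 2 primary c-Myc-high, 3 metastatic c-Myc-low and 2 primary c-Myc-low libraries. The labels give neither the age of the mice nor the alleles they carried, and they name no sort other than that by GFP. Whether each replicate was another mouse is not stated, so a p-value here speaks of the spread among these samples, which may be technical.

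Macrophages grow and survive through the receptor encoded by Csf1r, which binds the growth factors CSF1 and IL-34. They engulf particles through surface receptors, digest them in lysosomes, sense bacterial lipopolysaccharide with the help of CD14, and are a main source of the complement protein C1q. In lymph nodes they line the sinuses through which lymph enters, and in skin they lie in the dermis. In tumours they are among the common non-malignant cells.

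Every one of the 10 markers had a higher fitted level in metastatic than in primary cells when the difference was averaged over both c-Myc classes, but the spread between libraries was wide and 1 marker, Cd14, passed the test. Lyz2 was the marker with every metastatic library above every primary library. Of all tested genes 8.13% were called higher and 5.88% were separated in this way, so 1 of 10 markers is near either share. Within the metastatic c-Myc-high group the markers split: replicate 2 held the highest level of Lyz2, Mpeg1, Cd14, Csf1r, Cd68, C1qb and C1qc, while replicate 3 held the highest level of C1qa, Mrc1 and Emr1. No marker passed between the c-Myc classes at either site. These are bulk samples, so the number of macrophages, the RNA per macrophage and RNA of other cells that express these genes cannot be told apart.

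Libraries held between 1603012 and 6844328 estimated counts, and 3 counts stood for 0.438 to 1.87 CPM (counts scaled to a common library total). Levels below are CPM scaled with TMM factors, which correct for differences in library make-up. The range given for 3 counts is without these factors. The 12 melanocyte genes listed (such as Dct, Tyr and Pmel) had counts in every library, with a summed level of 2926 to 15882 CPM in metastatic c-Myc-high, 598 to 2913 CPM in primary c-Myc-high, 6889 to 20632 CPM in metastatic c-Myc-low and 704 to 1268 CPM in primary c-Myc-low libraries. Genes of other cells were also present. The summed level of 16 keratinocyte genes was 30.4 to 473 CPM in metastatic and 27595 to 97395 CPM in primary libraries. Metastatic c-Myc-high replicates 1 and 3 stood apart with 220603 and 63172 CPM of 18 salivary gland genes, against 13.4 to 773 CPM in the 8 other libraries, so results are also given without these libraries.

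Lyz2 encodes the lysozyme of macrophages and neutrophils, an enzyme that cuts bacterial cell walls, and lies on chromosome 10 from 117277541 to 117282272 (RefSeq, GRCm38.p6). Its level came to 43.8, 579.5 and 36.5 CPM in metastatic c-Myc-high replicates 1, 2 and 3, against 1.56 and 26.1 CPM in primary c-Myc-high replicates 1 and 2. Among c-Myc-low libraries it was 76.2, 75.1 and 325 CPM in metastatic replicates 1, 2 and 3, against 0.784 and 19.9 CPM in primary replicates 1 and 2. The 6 metastatic libraries all lay above the 4 primary ones, as for 5.88% of all tested genes. Metastatic c-Myc-high cells averaged 220.0 CPM ± 311 (SD, n = 3) and their primary counterparts 13.8 CPM ± 17.3 (SD, n = 2). Metastatic c-Myc-low cells averaged 159 CPM ± 144 (SD, n = 3) and their primary counterparts 10.3 CPM ± 13.5 (SD, n = 2). On the log2 scale the c-Myc-high class gave 4.06 (metastatic over primary, SE 1.82, adjusted p = 0.184) and the c-Myc-low class 3.96 (SE 1.80, adjusted p = 0.323). The mean of both classes was 4.01 (SE 1.28, adjusted p = 0.0576), which missed the threshold of 0.05. It was 4.61 (adjusted p = 0.0486), past the threshold, when the 2 libraries rich in salivary transcripts were left out. In c-Myc-high cells it was 1.43 when metastatic replicate 2 was left out (adjusted p = 0.578).

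Lyz2 has a close copy, Lyz1, the lysozyme of Paneth cells in the gut, and reads of the 2 genes may have been divided between them. Lyz1 had 43.5, 520.2 and 22.8 CPM in metastatic c-Myc-high replicates 1, 2 and 3, against 1.32 and 13.0 CPM in primary replicates 1 and 2, and so followed Lyz2 library by library. For the c-Myc-low class it had 67.8, 69.6 and 296 CPM in metastatic replicates 1, 2 and 3, against 0.784 and 18.2 CPM in primary replicates 1 and 2. Lyz1 passed as a mean of both classes, with a log2 fold change of 4.40 (SE 1.28, adjusted p = 0.0411). The values of either gene are therefore uncertain as to which copy the reads came from.

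Mpeg1 encodes perforin-2, a pore-forming protein of phagocytes that attacks engulfed bacteria. Its level came to 7.27, 167 and 1.02 CPM in metastatic c-Myc-high replicates 1, 2 and 3, against 0 and 5.60 CPM in primary replicates 1 and 2. In c-Myc-low cells it was 13.6, 27.4 and 68.6 CPM in metastatic replicates 1, 2 and 3, against 0.241 and 8.96 CPM in primary replicates 1 and 2. The groups did not overlap in c-Myc-low cells, as for 25.2% of all tested genes with metastatic above primary. They did overlap in c-Myc-high cells, where metastatic replicate 3 held 2 counts. On the log2 scale the c-Myc-high class gave 4.63 (SE 2.38, adjusted p = 0.231) and the c-Myc-low class 3.02 (SE 2.09, adjusted p = 0.645). The mean of both was 3.83 (SE 1.58, adjusted p = 0.126). Single libraries moved these values: the c-Myc-high one was 0.61 without metastatic replicate 2 and 11.22 without primary replicate 2, and the c-Myc-low one was 2.03 without primary replicate 1 and 7.12 without primary replicate 2. Of the 45 pairs of markers, Lyz2 and Mpeg1 had the second most similar course over the 10 libraries, with a root mean square difference of 1.01 on the log2 scale between profiles centred on their own means.

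Cd14 encodes a surface protein that hands lipopolysaccharide to the receptor TLR4, and lies on chromosome 18 from 36725064 to 36726815. Its level came to 16.4, 93.4 and 0 CPM in metastatic c-Myc-high replicates 1, 2 and 3, against 0 CPM in both primary c-Myc-high libraries. Among c-Myc-low libraries it was 7.52, 5.90 and 49.2 CPM in metastatic replicates 1, 2 and 3, against 1.93 and 3.18 CPM in primary replicates 1 and 2. All metastatic libraries except c-Myc-high replicate 3, which held no Cd14 count, were above all primary ones. By the mean of the metastatic libraries, Cd14 was at least 64.1-fold higher in metastatic c-Myc-high cells (adjusted p = 0.0923), with a floor of 3 counts over the primary group. This bound rested on replicate 2, without which it was 14.3-fold. The log2 fold change in c-Myc-low cells was 3.03 (SE 1.88, adjusted p = 0.564). Averaged over both classes it rose with a fitted log2 fold change of 6.75 (SE 1.92, adjusted p = 0.0409), a value that depends on how the primary c-Myc-high libraries without counts are treated. The ratio of its mean level was 22.5, from 28.7 CPM in 6 metastatic and 1.28 CPM in 4 primary libraries. In that comparison 8.13% of 16805 tested genes were called higher and 5.65% lower, so 1 of 10 markers is near the share of all genes. The call depended on the setting: over 19 alternatives Cd14 passed in 6, with adjusted p from 0.000391 to 0.170, and it gave 7.44 when the salivary-rich libraries were left out (adjusted p = 0.0153).

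**Figure D1:**
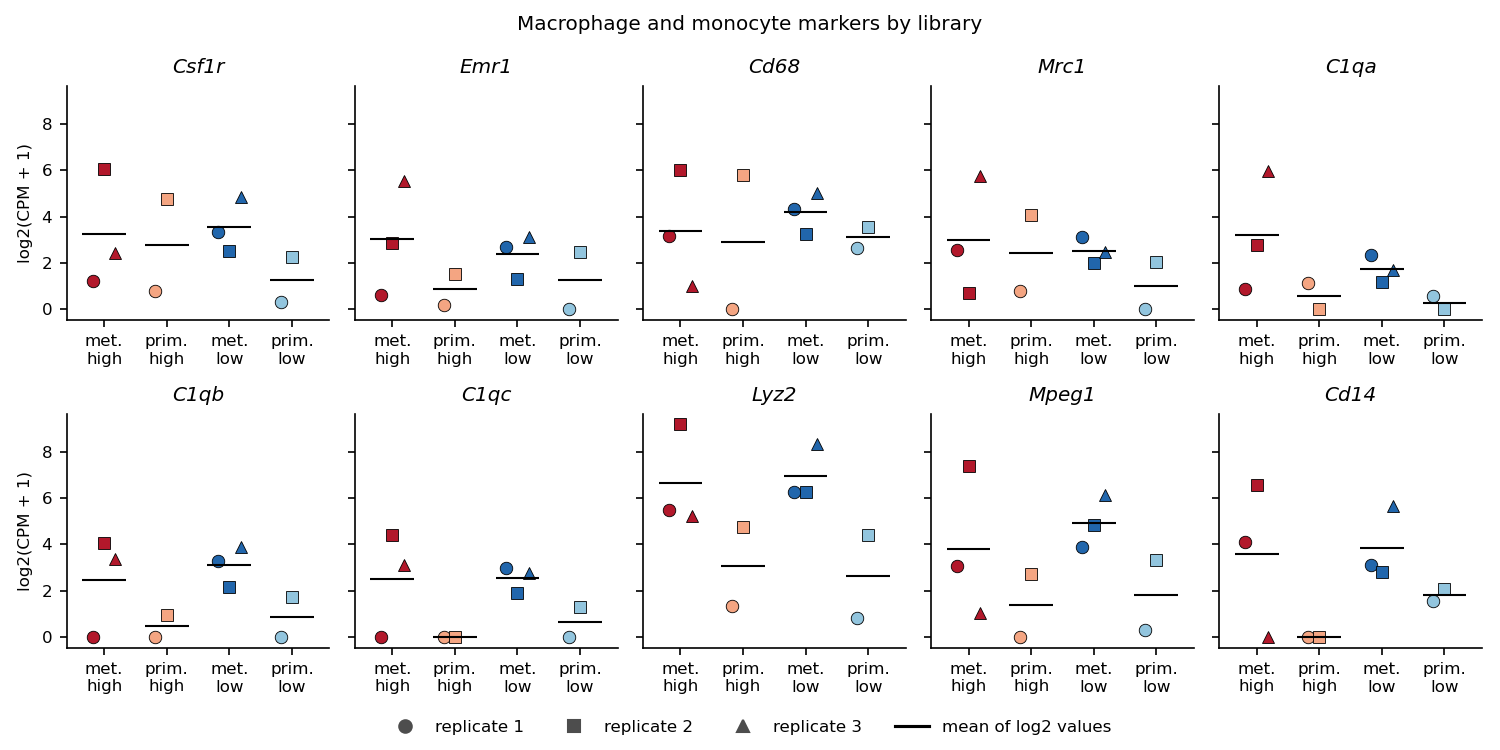
Level of each of the 10 markers in each library as log2(CPM + 1), with groups from left to right metastatic and primary c-Myc-high, then metastatic and primary c-Myc-low. Points are single libraries (2 or 3 per group), marker shape gives the replicate and the line the mean of the log2 values. In metastatic c-Myc-high cells replicate 2 is highest for 7 markers and replicate 3 for Emr1, Mrc1 and C1qa.

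C1q, the protein that starts the classical complement pathway, is built from A, B and C chains, and its genes lie side by side on chromosome 4: C1qb from 136880126 to 136886200, C1qc from 136889801 to 136892936 and C1qa from 136895916 to 136898844. C1qb had 0, 15.5 and 9.21 CPM in metastatic c-Myc-high replicates 1, 2 and 3, against 0 and 0.933 CPM in primary replicates 1 and 2. C1qc had 0, 20.4 and 7.67 CPM in the same metastatic libraries, against 0 CPM in both primary ones. These 2 chains moved closely together, with the smallest difference between centred profiles of all 45 pairs (0.59 on the log2 scale). In c-Myc-low cells C1qb had 8.64, 3.46 and 13.8 CPM in metastatic replicates 1, 2 and 3, against 0 and 2.31 CPM in primary replicates 1 and 2. C1qc had 6.83, 2.70 and 5.70 CPM there, against 0 and 1.44 CPM in primary replicates 1 and 2. For both genes the c-Myc-low groups did not overlap, as for 25.2% of all tested genes with metastatic above primary.

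C1qa took another course. It had 0.807, 5.91 and 61.2 CPM in metastatic c-Myc-high replicates 1, 2 and 3, against 1.19 and 0 CPM in primary replicates 1 and 2. For the c-Myc-low class it had 4.08, 1.28 and 2.21 CPM in metastatic replicates 1, 2 and 3, against 0.482 and 0 CPM in primary replicates 1 and 2. Per transcript length, C1qa stood at 4.79 RPKM (reads per kilobase, scaled for depth) in metastatic c-Myc-high replicate 3, above C1qb at 0.689 and C1qc at 0.519 RPKM. In metastatic c-Myc-high replicate 2 the order was the opposite, with C1qa at 1.30, C1qb at 3.25 and C1qc at 3.86 RPKM. The 3 chains were therefore not in a constant proportion across libraries, at counts of 15 to 120 per gene in these 2 libraries.

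None of the C1q genes passed between sites. By the mean of the metastatic libraries, C1qc was at least 16.4-fold higher in c-Myc-high cells (adjusted p = 0.153), against a floor of 3 counts over the primary group. Without metastatic replicate 2 this bound was 6.71-fold, and metastatic replicate 1 held no C1qc count. C1qb had 1 count in primary c-Myc-high cells, for a ratio of pooled counts of 46.5 (exact 95% interval 8.15 to 1857, counting error only, adjusted p = 0.267 in edgeR's test). The ratio of its mean levels was 17.7. C1qa differed by 4.86 on the log2 scale (SE 2.05, adjusted p = 0.166), or 2.14 without metastatic c-Myc-high replicate 3 (adjusted p = 0.419). In c-Myc-low cells the log2 fold changes were 3.06 (SE 1.88) for C1qa, 2.96 (SE 2.14) for C1qb and 2.89 (SE 2.12) for C1qc, with adjusted p of 0.552, 0.678 and 0.697. As a mean of both classes they were 3.96 (SE 1.39, adjusted p = 0.0792) for C1qa, 3.83 (SE 1.70, adjusted p = 0.152) for C1qb and 5.70 (SE 2.02, adjusted p = 0.0843) for C1qc. Without the libraries rich in salivary transcripts C1qc gave 6.29 and passed (adjusted p = 0.0444).

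The pairs C1qb and C1qc, and Lyz2 and Mpeg1, moved most alike, so a window of 250 bases before a start site of each of these genes is shown, from RefSeq on GRCm38.p6. They are chr4:136886201-136886450 on the minus strand for C1qb, chr4:136892915-136893164 on the minus strand for C1qc, chr10:117282273-117282522 on the minus strand for Lyz2 and chr19:12460520-12460769 on the plus strand for Mpeg1. The C1qc window belongs to a start site inside the gene's outer bound and overlaps the gene by 22 bases, and the other windows end at the bound. Each is given 5′ to 3′ in the direction of the gene, and capitals mark a match to 1 of 4 motifs on either strand.
C1qb: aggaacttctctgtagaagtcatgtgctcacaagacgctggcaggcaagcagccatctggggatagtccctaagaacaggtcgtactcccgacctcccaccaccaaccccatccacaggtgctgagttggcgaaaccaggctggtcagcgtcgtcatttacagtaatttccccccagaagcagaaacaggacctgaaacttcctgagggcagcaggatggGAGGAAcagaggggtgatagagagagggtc
C1qc: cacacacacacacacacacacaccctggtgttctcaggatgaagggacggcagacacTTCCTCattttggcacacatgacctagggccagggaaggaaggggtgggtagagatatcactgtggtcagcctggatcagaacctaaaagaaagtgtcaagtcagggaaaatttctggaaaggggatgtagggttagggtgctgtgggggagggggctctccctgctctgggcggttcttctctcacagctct
Lyz2: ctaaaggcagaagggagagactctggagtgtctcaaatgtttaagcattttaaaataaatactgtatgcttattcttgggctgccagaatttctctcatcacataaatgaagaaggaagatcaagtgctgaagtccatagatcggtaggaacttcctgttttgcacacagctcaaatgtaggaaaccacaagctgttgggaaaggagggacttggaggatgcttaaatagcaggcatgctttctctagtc
Mpeg1: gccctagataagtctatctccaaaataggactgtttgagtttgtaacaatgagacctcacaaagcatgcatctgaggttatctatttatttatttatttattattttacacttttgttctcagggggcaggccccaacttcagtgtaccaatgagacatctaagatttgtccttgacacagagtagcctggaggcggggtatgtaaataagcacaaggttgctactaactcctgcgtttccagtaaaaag
The motifs searched were GAGGAA, a purine-rich core bound by factors of the ETS family, TGANTCA, bound by AP-1 factors, TTGCNNAA, of the kind bound by C/EBP factors, and TATAAA, the TATA box. GAGGAA or its reverse complement was found 1 time in C1qb, 30 bases before the start, and 1 time in C1qc, 193 bases before the start site its window ends at, and in neither Lyz2 nor Mpeg1. Windows of 6 of the 10 markers were searched, without those of Csf1r, Emr1, C1qa and Cd14. GAGGAA was held by 4 of these 6 (the others with it were Cd68 and Mrc1), beside 23.3% of all 32851 windows of this length. TGANTCA and TTGCNNAA were found in Cd68 alone among the 6, beside 6.75% and 9.56% of all windows, and TATAAA in 0 of the 6, beside 12.4% of all windows. A match is only a match of letters.

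Csf1r, the CSF1 receptor, lies on chromosome 18 from 61105572 to 61131139. Its level came to 1.31, 65.5 and 4.39 CPM in metastatic c-Myc-high replicates 1, 2 and 3, against 0.699 and 26.0 CPM in primary replicates 1 and 2. In c-Myc-low cells it was 8.99, 4.74 and 27.8 CPM in metastatic replicates 1, 2 and 3, against 0.241 and 3.75 CPM in primary replicates 1 and 2. The c-Myc-high groups overlapped and the c-Myc-low groups did not, as for 25.2% of all tested genes with metastatic above primary. On the log2 scale the c-Myc-high class gave 0.88 (SE 1.77, adjusted p = 0.785) and the c-Myc-low class 2.83 (SE 1.95, adjusted p = 0.639). The mean of both was 1.85 (SE 1.31, adjusted p = 0.379). Its sign in c-Myc-high cells depended on single libraries, with -2.30 without metastatic replicate 2 (adjusted p = 0.448) and -0.38 without primary replicate 1.

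Emr1, now called Adgre1, encodes F4/80, an adhesion receptor used to stain mouse macrophages, and Mrc1 encodes the mannose receptor CD206 of resident and alternatively activated macrophages. Emr1 had 0.546, 6.18 and 46.0 CPM in metastatic c-Myc-high replicates 1, 2 and 3, against 0.133 and 1.87 CPM in primary replicates 1 and 2. Among c-Myc-low libraries it had 5.46, 1.48 and 7.62 CPM in metastatic replicates 1, 2 and 3, against 0.0166 and 4.50 CPM in primary replicates 1 and 2. Replicate 3 of the metastatic c-Myc-high group stood above all other libraries for this gene, by a factor of 6.05 over the next one. Mrc1 had 4.84, 0.621 and 52.2 CPM in metastatic c-Myc-high replicates 1, 2 and 3, against 0.720 and 15.9 CPM in primary replicates 1 and 2. For the c-Myc-low class it had 7.71, 2.96 and 4.60 CPM in metastatic replicates 1, 2 and 3, against 0 and 3.12 CPM in primary replicates 1 and 2. Here too metastatic c-Myc-high replicate 3 was highest, 3.27 times the next library, and replicate 2, the richest in Lyz2, was lowest of the 6 metastatic libraries.

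Neither gene passed between sites. Emr1, with 2.55 estimated counts in primary c-Myc-high cells, had a ratio of pooled counts of 20.1 there (exact 95% interval 6.73 to 98.9, counting error only, adjusted p = 0.258 in edgeR's test) and a ratio of mean levels of 17.6. Its log2 fold change was 1.10 (SE 1.90, adjusted p = 1) for c-Myc-low cells and 2.69 (SE 1.51, adjusted p = 0.259) averaged over both. Without primary c-Myc-low replicate 1 these were 0.06 and 2.17, without primary c-Myc-low replicate 2 they were 7.61 and 5.94, and without metastatic c-Myc-high replicate 3 the average was 1.52. Mrc1 gave 1.25 (SE 1.94, adjusted p = 0.710) for c-Myc-high cells, 1.73 (SE 1.99, adjusted p = 0.953) for c-Myc-low cells and 1.49 (SE 1.39, adjusted p = 0.523) averaged over both. Without the libraries rich in salivary transcripts, of which metastatic c-Myc-high replicate 3 is 1, Mrc1 turned to -3.74 in c-Myc-high cells and -1.05 averaged over both (adjusted p = 0.433 and 0.712).

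Cd68, a heavily glycosylated protein of late endosomes and lysosomes, showed the smallest difference between sites in c-Myc-high cells and averaged over both classes, while in c-Myc-low cells that of Emr1 was smaller. It had 8.03, 62.6 and 0.992 CPM in metastatic c-Myc-high replicates 1, 2 and 3, against 0 and 55.1 CPM in primary replicates 1 and 2. In c-Myc-low cells it had 19.0, 8.52 and 31.0 CPM in metastatic replicates 1, 2 and 3, against 5.25 and 10.7 CPM in primary replicates 1 and 2. The groups overlapped in both classes. On the log2 scale the c-Myc-high class gave -0.17 (SE 1.74, adjusted p = 0.965) and the c-Myc-low class 1.29 (SE 1.81, adjusted p = 1). The mean of both was 0.56 (SE 1.25, adjusted p = 0.820). In primary c-Myc-high replicate 2, 53.2 of 59.1 Cd68 counts were on 1 transcript of 612 bases, and 2.94 on each of the other two, which always carried equal shares. Without that library the c-Myc-high value was 9.95 (adjusted p = 0.0991), and with only the most abundant transcript of the gene it was 2.96 (adjusted p = 0.387).

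**Figure D2:**
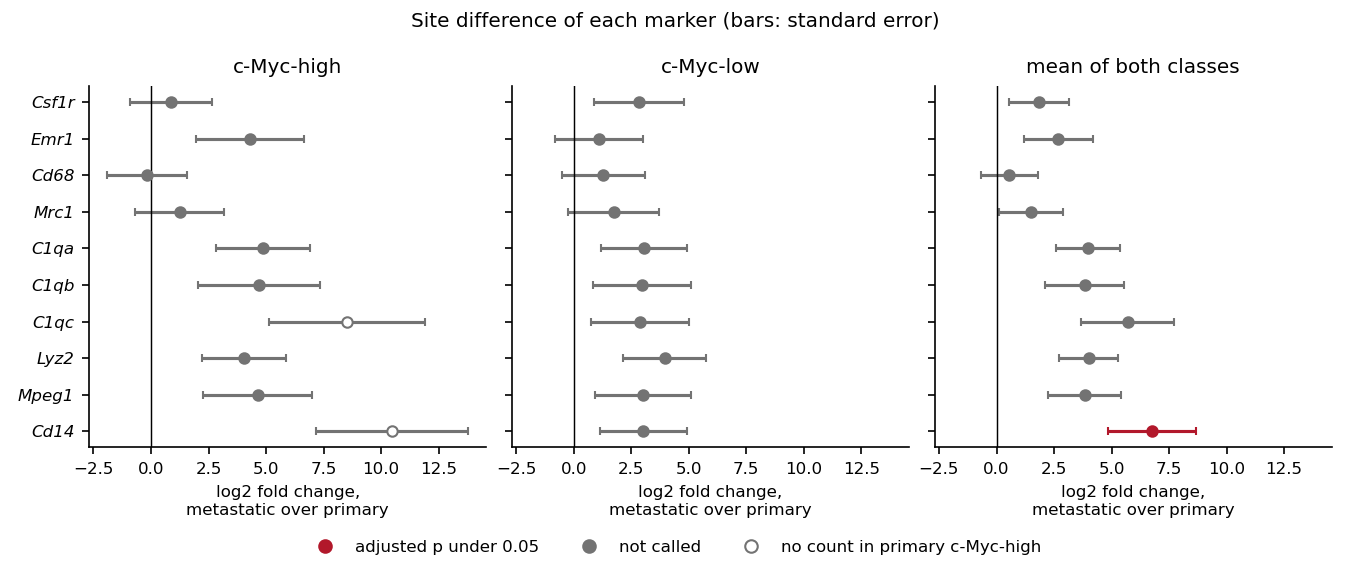
Log2 fold change of each marker, metastatic over primary, in c-Myc-high cells, in c-Myc-low cells and averaged over both classes. Points are edgeR estimates, bars standard errors, red an adjusted p under 0.05 and open points genes without a count in primary c-Myc-high cells, whose estimate is no bound. Cd14 averaged over both classes is the single called value, and Cd68 in c-Myc-high cells the single negative one.

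Set side by side, 0 of 10 markers passed in c-Myc-high cells between metastases and primary tumours, where 1.65% of all tested genes were called higher and 2.31% lower. At an unadjusted p under 0.05 there were 4 (edgeR), beside 16.3% of all genes higher. DESeq2, which gave no p-value for Lyz2 in any comparison, called 3 of the 9 others, namely C1qa, C1qc and Cd14, beside 12.9% of the genes it gave an adjusted p. The values were positive for 9 of 10 markers, with a median of 4.46, or 4.17 with the 2 genes without primary counts at their bound, beside a median of 0.38 over all genes. In c-Myc-low cells 0 of 10 passed, where 0.375% of all genes were called higher and 1.74% lower, with 1 at an unadjusted p under 0.05 (edgeR), beside 9.12% of all genes higher, and 0 of 9 called by DESeq2, beside 6.25% of its genes. The limma-voom fit called Lyz2 and Mpeg1, 2 of 10, beside 13.9% of all genes higher. In this class all 10 values were positive, with a median of 2.92 beside 0.10 over all genes. Averaged over both classes 1 passed and 6 had an unadjusted p under 0.05, beside 20.3% of all genes higher, with a median of 3.83 beside 0.28 over all genes. DESeq2 called 4 of 9, namely C1qa, C1qc, Mpeg1 and Cd14, beside 15.6% of its genes, and limma-voom called 0 of 10, beside 4.92% of all genes higher.

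The groups did not overlap, with metastatic above primary, for 7 of 10 markers in c-Myc-low cells, where 25.2% of all tested genes did the same. In c-Myc-high cells 1 of 10, Lyz2, did so, beside 17.4% of all genes, and over all 6 metastatic against 4 primary libraries again 1 of 10, beside 5.88%. The site effect itself was not shown to differ between the c-Myc classes: 0 of 10 markers passed in a test of that difference (edgeR, adjusted p from 0.744 to 1, with 0 at an unadjusted p under 0.05 and 0 of 9 called by DESeq2), and 0% of all genes were called by edgeR (797 higher and 353 lower at an unadjusted p under 0.05, and 55 and 29 called by DESeq2).

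Between c-Myc classes no marker passed either. In metastases the log2 fold changes, c-Myc-high over c-Myc-low, ran from -0.07 to 3.14 and in primary tumours from -6.63 to 2.75, with 0 of 10 called at each site and 0% of all genes called in either direction. No marker had an unadjusted p under 0.05 with edgeR, and DESeq2 called 0 of the 9 it tested, while over all genes DESeq2 called 71 higher and 15 lower in metastases and 197 higher and 201 lower in primary tumours. At an unadjusted p under 0.05 edgeR had 512 and 295 in metastases and 721 and 1232 in primary tumours. The largest value in metastases belonged to C1qa, with a mean of 22.7 CPM ± 33.5 (SD, n = 3) in c-Myc-high cells and 2.52 CPM ± 1.43 (SD, n = 3) in c-Myc-low cells (SE 1.53, adjusted p = 1). It was 0.42 without metastatic c-Myc-high replicate 3. The lowest value in primary tumours belonged to Cd14, which had no count in primary c-Myc-high cells and 27 counts in primary c-Myc-low cells.

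Per transcript length, Lyz2 was the highest of the 10 markers in 7 of 10 libraries. It made up 61.9%, 67.9% and 22.3% of the markers' summed RPKM in metastatic c-Myc-high replicates 1, 2 and 3, against 45.1% and 17.6% in primary replicates 1 and 2. Among c-Myc-low libraries it made up 56.8%, 69.7% and 69.5% in metastatic replicates 1, 2 and 3, against 9.38% and 40.5% in primary replicates 1 and 2. The exceptions were metastatic c-Myc-high replicate 3, led by C1qa, and primary c-Myc-high replicate 2 and c-Myc-low replicate 1, led by Cd68. The C1q genes together made up 57.0% of the signal in metastatic c-Myc-high replicate 3 and 1.39% and 5.47% in replicates 1 and 2 of that group. In primary c-Myc-high replicate 1 their 41.9% rested on 4.96 counts of C1qa.

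**Figure D3:**
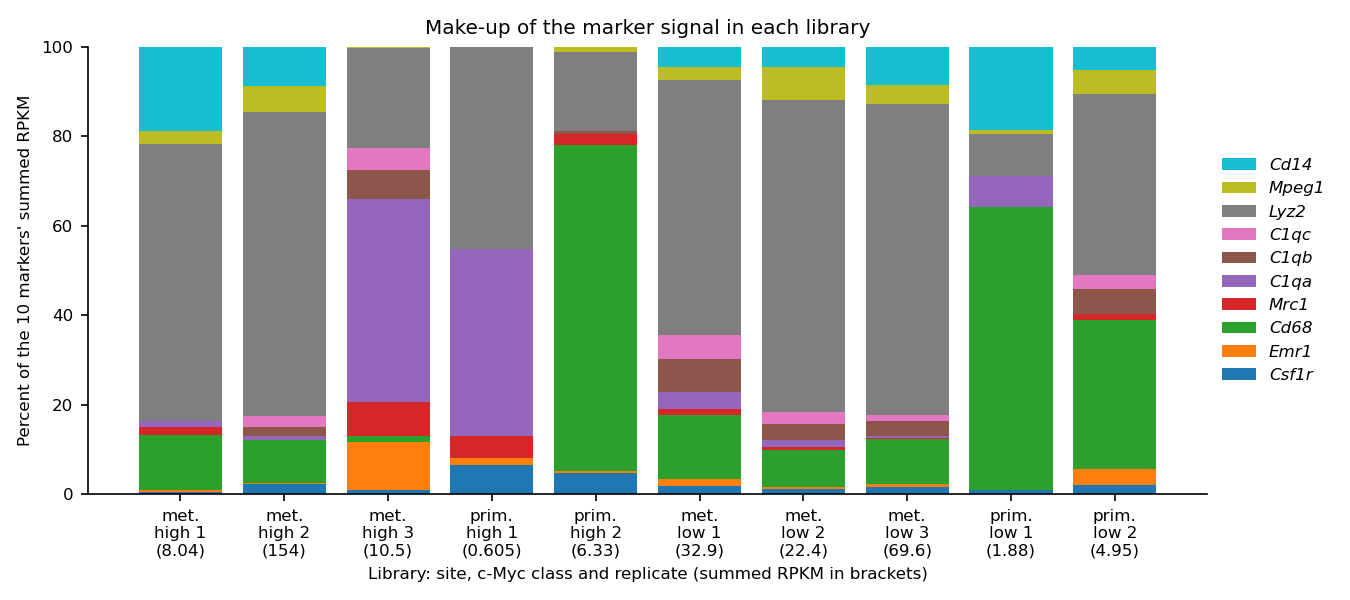
Share of each marker in the summed RPKM of the 10 markers (percent) in each library, with the summed RPKM in brackets. Lyz2 takes the largest share in 7 libraries, C1qa in metastatic c-Myc-high replicate 3, and Cd68 in primary c-Myc-high replicate 2 and primary c-Myc-low replicate 1.

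The summed level of the 10 markers came to 83.0, 1017 and 219 CPM in metastatic c-Myc-high replicates 1, 2 and 3, against 4.30 and 132 CPM in primary replicates 1 and 2. For the c-Myc-low class it was 158, 134 and 536 CPM in metastatic replicates 1, 2 and 3, against 8.94 and 57.9 CPM in primary replicates 1 and 2. Primary c-Myc-high replicate 2 thus overlapped the metastatic libraries. Between 0 and 2 markers were without a count in each metastatic library, and 1 to 5 in each primary library.

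Other leukocyte genes followed the markers only in part. Metastatic c-Myc-high replicate 2 and c-Myc-low replicate 3 were highest for the markers and for pan-leukocyte genes, while the order of the other libraries differed. The summed level of 12 pan-leukocyte genes such as Ptprc, which encodes CD45, came to 1320, 5133 and 387 CPM in metastatic c-Myc-high replicates 1, 2 and 3, against 174 and 45.7 CPM in primary replicates 1 and 2. In c-Myc-low cells it was 478, 1608 and 3318 CPM in metastatic replicates 1, 2 and 3, against 36.0 and 76.4 CPM in primary replicates 1 and 2. The markers' level divided by this sum gave, for metastatic c-Myc-high replicates 1, 2 and 3, quotients of 0.0628, 0.198 and 0.566, against 0.0247 and 2.88 for primary replicates 1 and 2. In c-Myc-low cells the quotient was 0.331, 0.0830 and 0.161 in metastatic replicates 1, 2 and 3, against 0.248 and 0.758 in primary replicates 1 and 2. Metastatic libraries were thus not uniformly higher once set against this sum. Its value in each primary library came mostly from 1 gene, Arhgdib. That gene had 138 and 34.4 CPM for the c-Myc-high pair, then 26.1 and 51.2 CPM for the c-Myc-low pair. Ptprc had 0.780 to 2.89 CPM across those primary libraries. The primary quotients therefore largely set the markers against Arhgdib, and do not give their share of leukocyte RNA in general.

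B cells fill the follicles of lymph nodes, and neutrophils, like macrophages, express Lyz2 and Cd14. The 12 B cell genes summed to 1272, 5691 and 168 CPM in metastatic c-Myc-high replicates 1, 2 and 3, against 14.6 and 2.10 CPM in primary replicates 1 and 2. They summed to 349, 1781 and 4351 CPM in metastatic c-Myc-low replicates 1, 2 and 3, against 6.18 and 10.6 CPM in the primary c-Myc-low pair. In both classes every metastatic library was above the primary ones. The 12 neutrophil genes summed to 83.3, 14253 and 223 CPM in the metastatic c-Myc-high libraries, against 142 and 268 CPM in the primary ones. In c-Myc-low cells they summed to 201, 238 and 4579 CPM in metastatic replicates 1, 2 and 3, against 175 and 268 CPM in primary replicates 1 and 2. The highest neutrophil sums fell in metastatic c-Myc-high replicate 2 and c-Myc-low replicate 3, which also had the highest Lyz2, Mpeg1 and Cd14. Whether neutrophil RNA had a part in these levels was not tested.

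**Figure D4:**
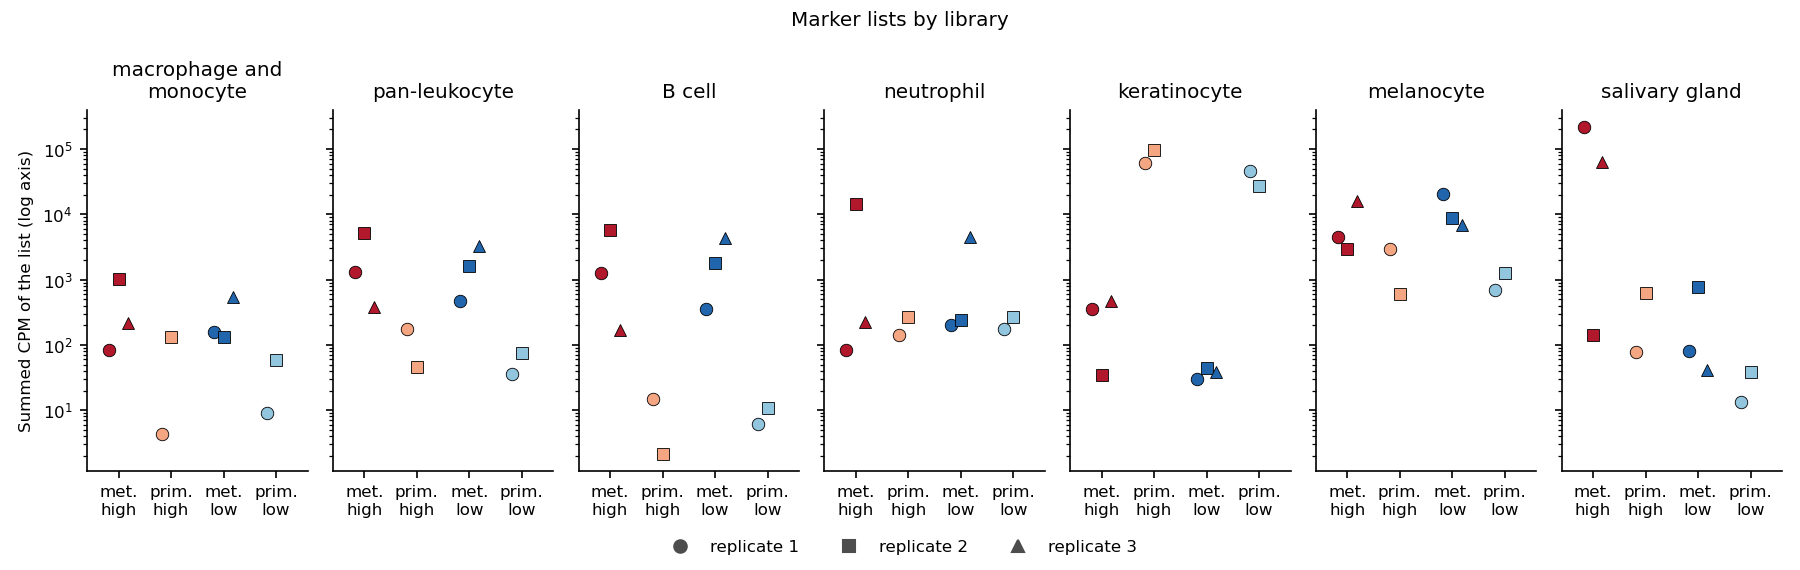
Summed level (CPM, log axis) of the 10 macrophage and monocyte markers and of 6 other marker lists in each library, with groups from left to right metastatic and primary c-Myc-high, then metastatic and primary c-Myc-low. Points are single libraries and the shape gives the replicate. Metastatic c-Myc-high replicate 2 is highest for the macrophage, pan-leukocyte, B cell and neutrophil lists, and replicates 1 and 3 of that group for the salivary list.

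Further genes of phagocytes were read from lists, with metastatic over primary averaged over both classes, a comparison in which 8.13% of all tested genes were called higher and 5.65% lower. A rise was not particular to phagocyte lists. The pan-leukocyte, B cell and T cell lists had larger shares called higher, at 10 of 12, 12 of 12 and 12 of 14, with 0 lower. Among 13 tested genes of the lipopolysaccharide receptor complex 5 were higher and 0 lower, with a median of 2.30. Tlr2, a receptor for bacterial lipoproteins, had 41.2, 49.0 and 13.1 CPM in metastatic c-Myc-high replicates 1, 2 and 3, against 0.720 and 0.914 CPM in primary replicates 1 and 2, and rose by 5.39 on the log2 scale in c-Myc-high cells (SE 1.36, adjusted p = 0.0486). Tlr4, the receptor that CD14 serves, rose by 3.30 averaged over both classes (SE 0.75, adjusted p = 0.0139). Cd180, a TLR4-like receptor of B cells, rose by 7.06 (SE 1.33, adjusted p = 0.00602).

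Of 17 genes of phagocyte lysosomes and the NADPH oxidase 7 were higher and 0 lower, with a median of 2.77. Lyz1, whose reads may be shared with the marker Lyz2, is in this list and among those called higher (adjusted p = 0.0411). Cybb, the membrane subunit of the oxidase, had 89.9, 429 and 15.9 CPM in metastatic c-Myc-high replicates 1, 2 and 3, against 1.44 and 0 CPM in primary replicates 1 and 2. It rose by 7.93 averaged over both classes (SE 1.49, adjusted p = 0.00588), and Ncf1, a cytosolic subunit, by 6.85 (SE 1.47, adjusted p = 0.0111). Of 14 complement genes 5 were higher and 0 lower, with a median of 2.82, among them C3, the central component (2.71, SE 0.67, adjusted p = 0.0204), and C4b, cleaved downstream of C1q (3.50, SE 0.91, adjusted p = 0.0263). Of 17 phagocytic receptors 1, the inhibitory Fc receptor gene Fcgr2b, was higher and 0 lower (6.34, SE 1.56, adjusted p = 0.0207), a share no larger than that of all genes. Of 11 monocyte genes 3 were higher and 0 lower, among them Ccr2, the chemokine receptor of inflammatory monocytes (6.72, SE 1.39, adjusted p = 0.00931).

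Of 13 tested genes of the CSF1 axis and myeloid transcription factors, 4 were higher and 4 lower in metastatic cells averaged over both classes. Their median was 0.72, and 8.13% of all genes were called higher and 5.65% lower. The transcription factors Maf, Cebpa and Klf4 were among the lower ones. Maf fell by 2.34 on the log2 scale (SE 0.43, adjusted p = 0.0049). Cebpa and Klf4, which act in myeloid cells and in epidermis, fell by 4.39 and 3.17 (adjusted p = 0.00292 and 0.0061). All 16 keratinocyte genes were lower in the same comparison, and what part keratinocyte RNA had in these values was not tested.

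The genes whose course over the 10 libraries was nearest to the mean course of the 10 markers were Lfng, Tmem173, Snn, Trim5 and Cxx1c, with root mean square differences of 0.63, 0.74, 0.75, 0.75 and 0.77 on the log2 scale. Among the markers themselves the distance to that mean ran from 0.81 for C1qb to 2.06 for Cd14, and the median over all tested genes was 1.99. Cd14 (2.06) and Mrc1 (2.02) both lay farther from it than the median gene. The difference between these 2 was the largest of the 45 pairs, at 3.77.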

How the data were processed

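RNA of sorted melanoma cells was amplified and sequenced, per the labels' protocols. The authors deposited estimated counts per transcript, which need not be whole and were not scaled between libraries, and RPKM, scaled by transcript length and depth. Bowtie2, limma and the mm10 build appear in the submitters' processing notes. For the counting program and its strand setting, nothing is given in the sources used here. Counts were summed by gene name and rounded. Genes that passed edgeR's expression filter numbered 16805, all 10 markers among them. Counts were scaled with TMM and tested with edgeR 4.0.16 quasi-likelihood fits in R 4.3.3 over all 4 groups with 1 shared spread (common biological coefficient of variation 0.876), with Benjamini-Hochberg adjustment over all genes and a threshold of 0.05. Adjusted p-values come from edgeR except where DESeq2 or limma is named. Standard errors were derived from the F statistic. For fold bounds, a group without counts was set to a floor of 3 counts over the group. Amplified reads are not independent molecules, so floors and intervals cover counting error only.

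DESeq2 1.42.0, limma 3.58.1 and other filters, scalings and sets of libraries were tried as alternatives. The fits were tested on simulated data. The markers and gene lists were chosen with earlier results of these data known. Named by rule were the markers and the 5 nearest genes, leaving out names of the Gm and Rik kind. Genes of the other lists named for the average over both classes were chosen after their values were seen. Replicates of a group differed far beyond sampling noise (chi-square per degree of freedom 44.7 to 222). The replicate numbers were not taken to pair libraries, since the deviations of equally numbered libraries correlated at -0.305 to 0.153. One result on a gene of a related list is not reported here.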

Additional observations from a re-analysis of the deposited data

How the results depend on the processing

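Of 607 refitted log2 fold changes of single markers, 559 kept their direction and their side of the threshold, 19 came past it, 13 no longer passed and 16 turned in sign. The count of markers called higher in metastatic c-Myc-high cells, 0 as reported, was 3 with DESeq2 and 1 without the expression filter, and 0 to 1 with each library left out. In c-Myc-low cells it was 2 with limma-voom and 0 with each library left out. Averaged over both classes, 1 as reported, it was 0 with the top transcript of each gene, 0 with limma-voom, 4 with DESeq2, 2 without scaling, 3 without the filter, 3 without the libraries rich in salivary transcripts, and 0 to 2 with each library left out. It was 0 without either primary c-Myc-high library, either primary c-Myc-low library, any metastatic c-Myc-low library or metastatic c-Myc-high replicate 2, and 2 without metastatic c-Myc-high replicate 1. The causes were not tested. In c-Myc-low cells single libraries moved every marker's value, most for Emr1 (0.06 to 7.61). No marker was called lower in any setting.

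Signs turned as follows. Cd68 in c-Myc-high cells gave 2.96 with the top transcript, 4.94 with limma-voom, 1.18 with limma-trend on RPKM, 0.53 without scaling, 1.10 without the libraries rich in salivary transcripts, and -2.75 to 9.95 with each library left out. Averaged over both classes Cd68 gave -0.78 to 5.58 with each library left out. Csf1r in c-Myc-high cells gave -2.30 to 4.999 and Mrc1 -1.56 to 4.79 with each library left out. Without the libraries rich in salivary transcripts Mrc1 gave -3.74 in c-Myc-high cells and -1.05 averaged over both classes. With the replicate number as a block, Cd68 in c-Myc-high cells gave 0.56, and 1 marker was called averaged over both classes, Lyz2 (adjusted p = 0.0259) in place of Cd14.

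Without TMM the median over all genes in c-Myc-high cells was 0.67, against 0.38 with it. Mean CPM without TMM and summed levels without Lyz2 moved by less than the replicate spread. Over all genes, calls in c-Myc-high cells numbered 667 as reported, 3248 with DESeq2, 166 with limma-voom, 278 with limma-trend and 1273 without the filter. RPKM served for shares and order within a library and for the limma-trend fit. For Lyz2 DESeq2 gave log2 fold changes of 3.72 in c-Myc-high cells, 3.90 in c-Myc-low cells and 3.81 averaged over both. It gave no p-value for them, so Lyz2 has no DESeq2 test result here. At 3 counts per 0.438 to 1.87 CPM without TMM, levels below about that size were not detectable as different from 0. With TMM the size differed, and in primary c-Myc-high replicate 2 already 2 counts of Emr1 stood for 1.87 CPM.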

Other observations

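Some genes of neutrophils and dendritic cells, which share a myeloid origin with macrophages, were also higher in metastatic cells averaged over both c-Myc classes. In that comparison 8.13% of all tested genes were called higher and 5.65% lower. The rise was not particular to myeloid lists, since 12 of 12 B cell genes and 12 of 14 T cell genes were called higher. Of 11 tested neutrophil genes 5 were higher and 0 lower, but the summed level of the 12 listed stood above that of all primary libraries in 2 of 6 metastatic libraries, c-Myc-high replicate 2 and c-Myc-low replicate 3. Ngp, a granule protein of maturing neutrophils, had 0.538, 1136 and 9.64 CPM in metastatic c-Myc-high replicates 1, 2 and 3, against 1.20 and 0 CPM in primary replicates 1 and 2 (log2 fold change 8.43, SE 2.21, adjusted p = 0.0272). Of 11 tested genes of dendritic and Langerhans cells 4 were higher and 0 lower, and the summed level of the 12 listed was 186, 877 and 6.39 CPM in metastatic c-Myc-high replicates 1, 2 and 3, against 249.99 and 2.53 CPM in primary replicates 1 and 2. In primary c-Myc-high replicate 1 the gene H2-DMb2 alone gave 212 CPM of that sum, and 7 of the 12 genes had no count. Ccr7, the receptor that guides dendritic cells and lymphocytes to lymph nodes, had 53.5, 207.9 and 1.07 CPM in metastatic c-Myc-high replicates 1, 2 and 3, against 0.960 and 0.00924 CPM in primary replicates 1 and 2 (log2 fold change 8.37, SE 1.63, adjusted p = 0.00725).

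Mertk, a receptor for the engulfment of dying cells, was high where Lyz2 was low within the metastatic c-Myc-high group, with 84.6, 2.29 and 269 CPM in replicates 1, 2 and 3, against 0.473 and 4.84 CPM in primary c-Myc-high replicates 1 and 2. In metastatic c-Myc-low replicates 1, 2 and 3 it had 158, 84.9 and 1.31 CPM, against 1.97 and 9.61 CPM in primary replicates 1 and 2. Mertk did not pass averaged over both classes (log2 fold change 4.80, SE 1.51, adjusted p = 0.0539). Which cells its RNA came from was not tested. It was singled out after its values were seen.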
